A study of Bos taurus with 12 samples.

Results

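Among genes expressed in fertilised bovine embryos at the 8-cell stage, 158 reached 5 FPKM after in vitro fertilisation (IVF) but not 1 FPKM in either group of cloned embryos. FPKM counts fragments per kilobase of a transcript relative to all mapped fragments, and so is a level corrected for transcript length and library size. The members were chosen on the IVF column and both clone columns of the deposited table, so their high IVF and low clone levels are the rule and not a finding. They made up 0.704% of the 22445 loci listed and 2.12% of the 7464 loci at 5 FPKM or more in IVF embryos. All samples came from Holstein cattle: fetal fibroblasts, and pools of 8 embryos made by IVF, by somatic cell nuclear transfer (SCNT), or by SCNT with overexpression of KDM5B, with 3 libraries in each of the 4 groups. The labels do not say how KDM5B was overexpressed, or whether the sequenced fibroblasts were the nuclear donors. The table holds 1 value per gene and group, and the values show it to be the mean of the 3 libraries, so no SD, replicate check or test can be given and every comparison is between group means. The files pair no ID with a gene name, so tissue and cell type markers and KDM5B itself were not analysed here.

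A cattle egg stores RNA and protein that carry the embryo through its first divisions, and the main activation of the embryo's own genome takes place around the 8-cell stage. In SCNT the nucleus of a body cell is put into an egg without its own nucleus, and its chromatin has to be reset to an embryonic state before that activation. KDM5B removes methyl groups from a lysine of histone H3 that is methylated at the start sites of active genes. RNA of a pool holds both stored and newly made transcripts, and fewer cells with a transcript and less of it per cell cannot be told apart.

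The members were of low abundance among loci at 5 FPKM or more in IVF embryos. Their IVF levels ran from 5 to 29.7 FPKM with a median of 6.12 and quartiles of 5.46 and 7.48. By comparison, the 7306 other loci at 5 FPKM or more in IVF had a median of 20.7. Over all 22445 loci the IVF median was 1.5 FPKM, under the limit of the rule. Of the members, 143 lay between 5 and 10 FPKM, 12 between 10 and 20, and 3 at 20 or more, and 48 lay under 5.5 FPKM, close to the limit of the rule. Together they held 0.147% of the summed FPKM of the IVF column. The share of loci that met the rule was smaller at higher IVF levels: 7.22% of the 1981 loci between 5 and 10 FPKM, 0.680% of the 1764 between 10 and 20, and 0.0807% of the 3719 at 20 or more.

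Just inside the IVF limit lay members at 5 and 5.01 FPKM, and just outside it a pair of loci both at 4.997 FPKM. At the SCNT limit the nearest members both stood at 0.993 FPKM, and the nearest loci outside at 1.003 and 1.02. At the limit for KDM5B clones the nearest members stood at 0.993 and 0.997 FPKM and the nearest loci outside at 1.003 and 1.01. No gap in the values separates the members from their neighbours.

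The member with the highest IVF level, ENSBTAG00000035012.3, had 29.7 FPKM in IVF embryos and a listed value of 0 in SCNT embryos, KDM5B clones and fibroblasts. Its IVF level ranked 2893 among the 22445 loci of the IVF column, where the highest level was 94337 FPKM. The second, BGI_novel_G002843, one of the authors' own loci, stood at 22.5 FPKM in IVF, 0.133 in SCNT, 0.317 in KDM5B clones and 0.0733 in fibroblasts. That is a ratio of 169 between IVF and SCNT and of 71.1 between IVF and KDM5B clones. The files give neither locus a name or a role.

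**Figure D1:**
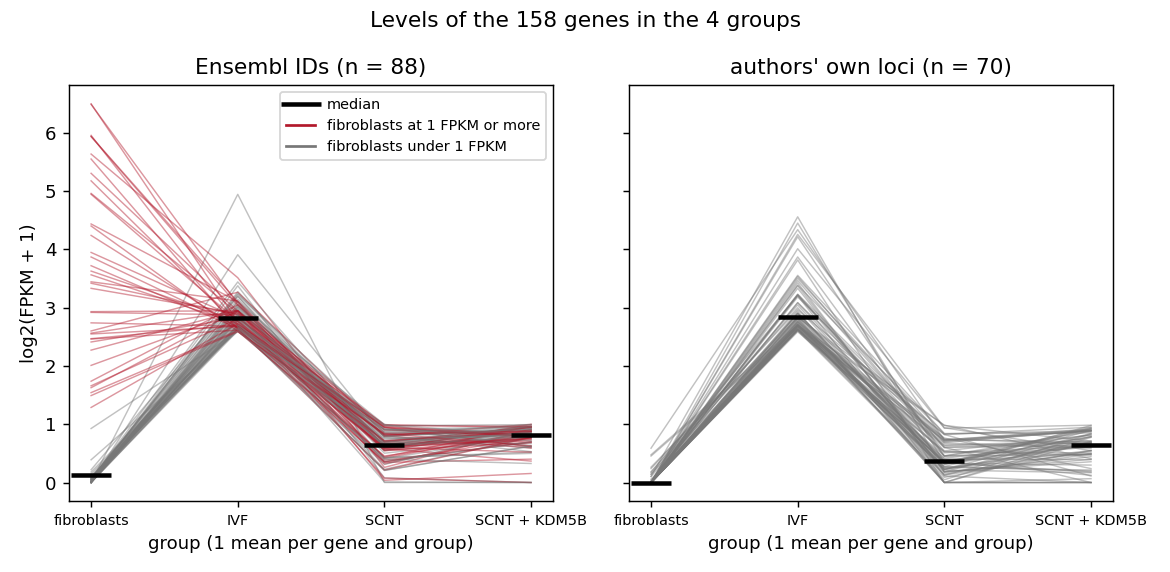
Levels of the members as log2(FPKM + 1) in the 4 groups, with 1 line per gene, red where fibroblasts reached 1 FPKM; black bars are medians, and the panels hold 88 Ensembl IDs and 70 of the authors' own loci. The height of IVF over the clone groups and the low clone values are set by the rule. The fibroblast levels at the left are not, including the fan of red lines present among the Ensembl IDs only.

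The clone groups were low for these genes, but few members were listed at 0. SCNT levels had a median of 0.505 FPKM with quartiles of 0.257 and 0.697, and levels in KDM5B clones had a median of 0.710 with quartiles of 0.463 and 0.846. In SCNT embryos 16 members lay under 0.1 FPKM, 62 between 0.1 and 0.5, and 80 between 0.5 and 1. In KDM5B clones the numbers were 12, 29 and 117. "Off" is thus a name for under 1 FPKM, and most members had a listed level above 0; how far such levels can be told from 0 is not known, since depth is unknown.

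A value of 0 was listed for 7 members (4.43%) in SCNT and for 9 (5.70%) in KDM5B clones. Over all 22445 loci the shares at 0 were 15.3% and 9.58%, and over the 7464 loci at 5 FPKM or more in IVF they were 0.134% and 0.147%. Among the members, 0 was listed in both clone groups for 4 members (2.53%), in SCNT alone for 3 and in KDM5B clones alone for 5. The 4 members at 0 in both stood at 29.7, 13.1, 8.21 and 6.41 FPKM in IVF, and each was also listed at 0 in fibroblasts. Of them 3 were loci of the authors' own and 1 had an Ensembl ID. The share at 0 in both clone groups was 2.66% among 2071 loci that were also under 1 FPKM in both clone groups but between 1 and 5 in IVF, so this share was close to that of less abundant IVF genes.

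The values bound what single libraries could hold. A mean under 1 FPKM over 3 libraries leaves each clone library under 3 FPKM, and the highest level any clone library of a member could have had was 2.99. For 158 of 158 members the IVF mean, and so at least 1 IVF library, lay above any level that a clone library of the same gene could have reached. This follows from the limits of the rule. It does not show that the groups were free of overlap, because a mean of 5 FPKM could also come from 1 high and 2 low IVF libraries.

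On the log2(FPKM + 1) scale all 158 members were at least 2-fold lower than IVF in SCNT and in KDM5B clones, which the rule fixes. Over the 14836 loci at 1 FPKM or more in an embryo group, 36.7% were at least 2-fold lower in SCNT than in IVF, and 31.2% in KDM5B clones. The median differences of the members were -2.37 for SCNT minus IVF and -2.13 for KDM5B clones minus IVF, beside -0.45 and -0.25 over all those loci. Both comparisons share the IVF libraries. In ratios of FPKM, the 151 members above 0 in SCNT had 5.44 to 954 times more in IVF, with a median ratio of 13.8. The 149 members above 0 in KDM5B clones had a median ratio of 9.38 and a range of 5.30 to 123. The upper ends of these ranges rest on means of 0.00667 FPKM in SCNT and 0.0467 FPKM in KDM5B clones, barely above 0.

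KDM5B clones held slightly more of these transcripts than SCNT embryos, and so did low loci in general. The level was higher with KDM5B for 108 members, lower for 46 and equal for 4. Thus 68.4% of the members were higher with KDM5B, beside 67.5% of the 2071 loci under 1 FPKM in both clone groups and between 1 and 5 in IVF, and 64.8% of the loci at 1 FPKM or more in an embryo group. The median difference of log2(FPKM + 1) was 0.13 for the members and 0.18 for the latter loci. Where both clone groups reached 0.1 FPKM, as they did for 139 members, the median ratio of KDM5B clones to SCNT was 1.29, beside 1.30 for the 1445 such loci of the lower IVF band. A ratio of 2 or more was reached by 36 of these 139 members (25.9%) and by 25.1% of that band. A ratio of 0.5 or less was found for 2 members (1.44%) and for 6.71% of that band.

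Columns were also centred, each scaled by its median departure from the gene means over the 4 groups on the log2(FPKM + 1) scale. The median was taken over loci at 1 FPKM or more in a group. After this, 93 members were higher and 61 lower with KDM5B. That is 58.9% of the members higher, beside 61.2% of the loci of the lower IVF band. A lean to higher values with KDM5B thus remained in that band, so centring did not take out the whole shift of low loci. On the log2(FPKM + 1) scale 0 members lay 2-fold apart between the clone groups, and none could, because both values are held under 1 FPKM. Of the 14836 loci at 1 FPKM or more in an embryo group, 6.46% had a value with KDM5B at or above 2-fold and 1.81% a value reduced to the same degree. Those loci include the members and the lower IVF band, which cannot be 2-fold apart on this scale. These counts are descriptions of 1 mean per group, with no replicate check.

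**Figure D2:**
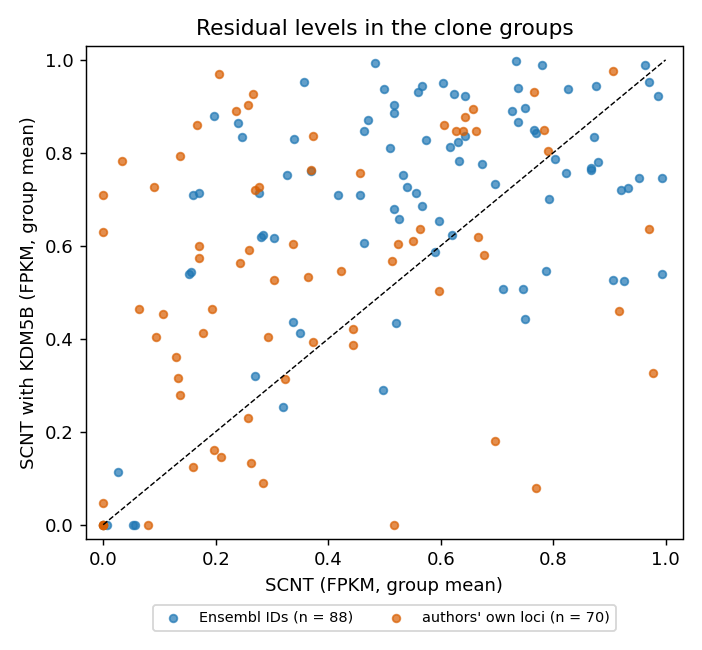
FPKM of each member in SCNT embryos (x axis) and in SCNT embryos with KDM5B (y axis), as group means, with the dashed line at equal levels; both axes end at the limit of 1 FPKM. Above the line lie 108 members and below it 46, and 4 are listed at 0 on both axes.

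Fibroblasts were not part of the rule, and their levels split the members. Of the 158 members 119 (75.3%) were under 1 FPKM in fibroblasts, 71 of them (44.9% of all members) listed at 0. A 0 in fibroblasts was listed for 20.1% of all loci and for 6.99% of the 7306 other loci at 5 FPKM or more in IVF. The other 39 ran from 1.44 to 89.1 FPKM with a median of 9.86. Few lay between: 105 members were under 0.1 FPKM, 12 between 0.1 and 0.5, and 2 between 0.5 and 1, whereas 13 lay between 1 and 5, 7 between 5 and 10, 6 between 10 and 20, and 13 at 20 or more. Of the 7306 other loci, 346 lay between 0.1 and 0.5 FPKM in fibroblasts and 201 between 0.5 and 1. Low numbers between 0.1 and 1 FPKM were thus not particular to the members. On the log2(FPKM + 1) scale 125 members were lower in fibroblasts than in IVF by 2-fold or more, 17 were higher by as much and 16 lay within 2-fold. Of the 15634 loci at 1 FPKM or more in either group, 40.9% fell in the first of these classes and 35.6% in the second. That set includes loci low in IVF, which the rule leaves out. Among the 7306 other loci at 5 FPKM or more in IVF, 4160 were 2-fold lower in fibroblasts, 1084 were 2-fold higher and 2062 lay within 2-fold. These backgrounds mix locus types. Among Ensembl IDs alone, 55 of the 88 members were 2-fold lower in fibroblasts and 17 were 2-fold higher. Over all 6786 Ensembl IDs at 5 FPKM or more in IVF, 3691 and 1084 were. All 70 members from the authors' own loci were 2-fold lower, beside 594 of all 678 such loci at that IVF level. The IVF column is used in both the rule and this comparison, so the lean to lower values holds in part by choice of the members.

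The type of locus went with this split. Ensembl IDs made up 88 of the members and the authors' own loci 70, a share of 44.3% own loci beside 8.32% among the 7306 other loci at 5 FPKM or more in IVF. Put the other way, 10.3% of the 678 own loci at that IVF level met the rule, and 1.30% of the 6786 Ensembl IDs. All 70 own loci were under 1 FPKM in fibroblasts, with 53 listed at 0 and a highest level of 0.503 FPKM. Of the 88 Ensembl IDs 49 were under 1 FPKM, with 18 listed at 0. These zeros were 75.7% of the own loci and 20.5% of the Ensembl IDs, beside 36.2% and 4.34% of the other loci of each type at 5 FPKM or more in IVF.

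Low fibroblast levels were more frequent among the members than among other IVF genes of the same locus type. Of the Ensembl IDs at 5 FPKM or more in IVF, 55.7% of the 88 members were under 1 FPKM in fibroblasts, against 14.97% of the 6698 others. Of the own loci it was 100% of the 70 members against 68.8% of the 608 others. The gap was of a like size at matched IVF level: between 5 and 10 FPKM in IVF, 55.3% of 85 members and 17.8% of 1592 others with Ensembl IDs were under 1 FPKM in fibroblasts. In the same band it was 100% of 58 members and 70.3% of 246 others among own loci. Counted from the fibroblast side, among Ensembl IDs that reached 5 FPKM in IVF, 4.66% of the 1052 under 1 FPKM in fibroblasts met the rule, against 0.863% of the 2317 between 1 and 10 FPKM and 0.556% of the 3417 at 10 or more. None of the 125 own loci between 1 and 10 FPKM in fibroblasts and none of the 65 at 10 or more did so. Fibroblasts were run on another instrument (BGIseq-500) than embryos per the design text, but on the same one (HiSeq) per the protocol. If the former holds, cell type and instrument cannot be told apart. How the own loci were assembled was not stated.

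**Figure D3:**
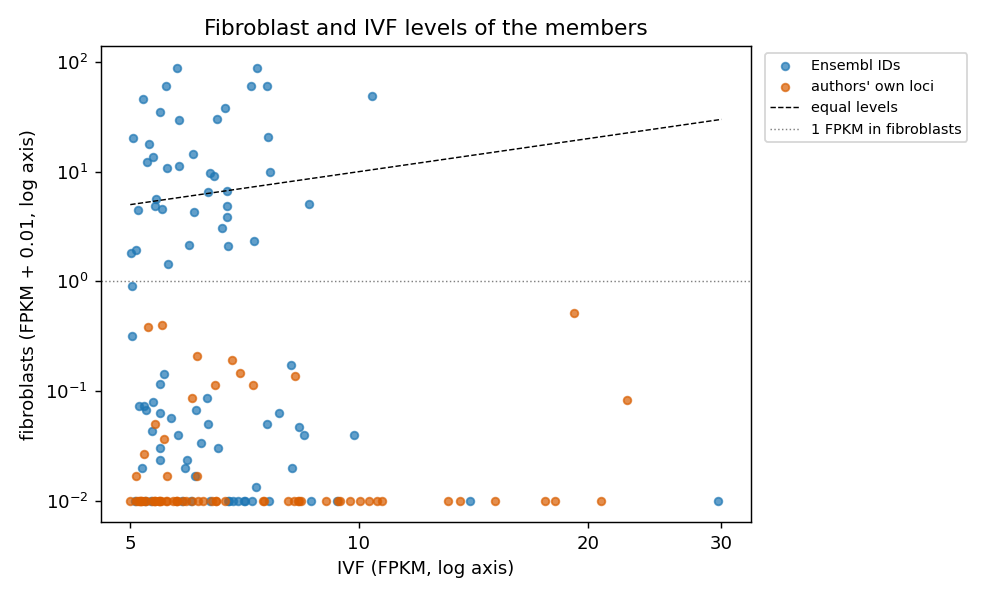
FPKM of each member in IVF embryos (x axis) and in fibroblasts (y axis, with 0.01 added so that 0 can be drawn), both on log axes; the dotted line marks 1 FPKM and the dashed line equal levels. All own loci lie under the dotted line, and 24 Ensembl IDs lie above the dashed line.

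The members that fibroblasts did express form a small group of 39 Ensembl IDs. Their IVF median was 6.05 FPKM, beside 6.13 for the 119 members under 1 FPKM in fibroblasts, both near the limit of 5. The upper quartiles in IVF were 6.70 and 8.11 FPKM, and the highest levels 10.4 and 29.7. In fibroblasts 26 of the 39 reached 5 FPKM, 19 reached 10, and 24 stood above their own IVF level. Of the 88 Ensembl members, 29.5% thus reached 5 FPKM and 21.6% reached 10. Over all 6786 Ensembl IDs at 5 FPKM or more in IVF, 67.2% and 50.4% did. Of those 6786, 1977 stood above their own IVF level. In the clones the medians of the 39 were 0.527 FPKM in SCNT and 0.747 in KDM5B clones. The other 119 members had 0.443 and 0.637, and all of these lie under the ceiling that the rule sets. Of the 39, 0 were listed at 0 in both clone groups. The fibroblast level was 1.66 to 182 times the higher of the clone levels, with a median of 14.1. It was at least 10 times that clone level for 24 of the 39. A ratio above 1 is fixed in advance. The 39 have 1 FPKM or more in fibroblasts, and the rule holds both clone levels under 1. For 36 of the 39 the fibroblast mean exceeded any level that a single clone library could have reached. Any fibroblast mean of 3 FPKM or more does so under the rule.

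ENSBTAG00000023929.4 had the highest fibroblast level among the members, 89.1 FPKM, with 5.76 in IVF, 0.357 in SCNT and 0.953 in KDM5B clones. The next, ENSBTAG00000018644.5, stood at 88.6 FPKM in fibroblasts, 7.35 in IVF, 0.457 in SCNT and 0.710 in KDM5B clones. Their fibroblast levels were 15.5 and 12.05 times their IVF levels. Both were thus abundant in the somatic cell type, present in fertilised embryos and under 1 FPKM in both clone groups. Such genes were 19 of the 3417 Ensembl IDs that reached 10 FPKM in fibroblasts and 5 in IVF.

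The nearest classes share the IVF limit and differ in 1 clone group. In 315 loci SCNT was under 1 FPKM and KDM5B clones were not, and in 40 loci the reverse held. The class below the limit in SCNT alone had a median of 7.19 FPKM in IVF, 0.717 in SCNT and 1.60 in KDM5B clones. Its SCNT median was thus nearer the limit of 1 FPKM than the 0.505 of the members. The class below the limit in KDM5B clones alone had medians of 7.59 in IVF, 1.45 in SCNT and 0.787 in KDM5B clones. These medians lie within 1 FPKM of the limit, but single loci were farther off: with SCNT alone under the limit, KDM5B clones reached 35.6 FPKM, and 3 loci stood at 5 FPKM or more there.

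In fibroblasts these classes lay between the members and the remaining IVF genes among Ensembl IDs, but not throughout among own loci. Among Ensembl IDs the share under 1 FPKM in fibroblasts was 55.7% of the 88 members, 41.7% of the 240 loci low in SCNT alone, 47.8% of the 23 low in KDM5B clones alone, and 13.9% of the 6435 low in neither. Among own loci the shares were 100% of 70, 97.3% of 75, 100% of 17 and 63.6% of 516. The shares of the members were thus nearer to those of genes low in 1 clone group than to those of genes low in neither. No test of these shares was made, since loci are not replicates of a condition.

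**Figure D4:**
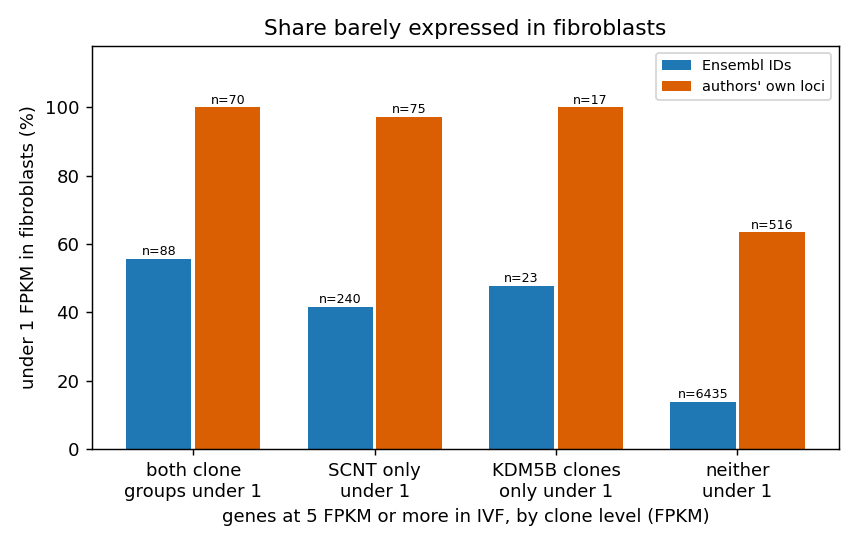
Percentage of loci under 1 FPKM in fibroblasts among loci at 5 FPKM or more in IVF, by which clone group was under 1 FPKM, for Ensembl IDs (blue) and the authors' own loci (orange), with the number of loci above each bar. Among Ensembl IDs the share is 55.7% for the members and 13.9% for loci low in neither clone group.

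Own loci had lower clone levels than Ensembl IDs, among the members as among all IVF genes. The 70 own loci had medians of 6.13 FPKM in IVF, 0.288 in SCNT and 0.570 in KDM5B clones, and the 88 Ensembl IDs 6.09, 0.570 and 0.753. Over all loci at 5 FPKM or more in IVF the clone medians were 4.27 and 5.53 for own loci and 14.8 and 17.1 for Ensembl IDs. There own loci were also lower in IVF, with a median of 11.1 FPKM beside 21.5. Among those above 0 in SCNT, the median ratio of IVF to SCNT was 4.18 for own loci and 1.91 for Ensembl IDs. Own loci made up 6 of the 7 members listed at 0 in SCNT and 5 of the 9 listed at 0 in KDM5B clones. Over all loci at 5 FPKM or more in IVF they made up 8 of 10 and 6 of 11. Over the whole table, however, own loci were listed at 0 less often than Ensembl IDs. The shares were 11.9% against 16.2% in SCNT and 8.16% against 9.97% in KDM5B clones. Own loci also held 12 of the 15 members at 10 FPKM or more in IVF. They were 171 of all 1764 loci between 10 and 20 FPKM in IVF and 203 of the 3719 at 20 or more. Of those 15 members, 14 were under 1 FPKM in fibroblasts, including all 12 own loci. Among other own loci, 67.7% of the 161 between 10 and 20 FPKM in IVF and 67.7% of the 201 at 20 or more were so too. Between 10 and 20 FPKM in IVF it was 1 of 2 Ensembl members against 16.7% of 1591 other Ensembl IDs. At 20 or more it was the 1 Ensembl member against 12.9% of 3515 others.

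Some own loci carry consecutive numbers in the authors' scheme. Of the 70 members of that type, 8 formed 4 pairs with adjacent numbers (11.4%), and 28 of the 608 other own loci at 5 FPKM or more in IVF (4.61%) had a member as neighbour in number. A neighbour in number at 5 FPKM or more in IVF, member or not, was found for 42.9% of the members and 46.4% of the other own loci. In the first pair IVF levels were 8.21 and 5.76 FPKM, SCNT was listed at 0 for both, and KDM5B clones at 0 and 0.0467. In the second they were 10.3 and 17.6 FPKM in IVF, 0.677 and 0.370 in SCNT, and 0.580 and 0.763 in KDM5B clones. The third pair stood at 5.08 and 5.22 FPKM in IVF, 0.0633 and 0.337 in SCNT, and 0.463 and 0.603 in KDM5B clones, and the last at 5.09 and 10.02 in IVF, 0.197 and 0.513 in SCNT, and 0.160 and 0.567 in KDM5B clones. The files give no coordinates for these loci, so whether neighbours in number are pieces of 1 transcript was not tested, and the 158 members may include fewer independent transcripts.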

How the data were processed

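The authors deposited 1 table of FPKM values with a column for each group. The columns were read as means of 3 libraries, because multiplying by 300 gives a whole number (within 0.001) for 100% of fibroblast values and 99.9955% of those in every embryo column. Tools listed in the submitters' processing notes, with no roles, were RSEM 1.2.12, Bowtie2 2.2.5, StringTie 1.0.4, HISAT 0.1.6 and bcl2fastq 2.16, and the build was UMD3.1. Per the labels' protocols, embryos were lysed directly and cDNA was amplified, which can distort low levels. Depth is unknown. Groups follow the sample titles, since another label of the fibroblasts names SCNT embryos.

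Members and lists were chosen with earlier results of these data known. The rule was applied to the deposited values, and differences used log2(FPKM + 1), which understates changes of low genes. Background shares of 2-fold differences between embryo groups were taken over the 14836 loci at 1 FPKM or more in any embryo group. This includes loci under 1 FPKM in both groups compared. For fibroblasts against IVF they were taken over the 15634 loci at 1 FPKM or more in either. The reference gene table (ARS-UCD2.0, 37063 entries) has 0 entries in its Ensembl column, so no ID was matched, and planned gene lists and markers were not run. In place of named genes, the 2 members highest in IVF among those lower in fibroblasts and the 2 highest in fibroblasts are given by ID. Alternatives were other limits, scalings, pseudocounts and locus types. Python 3.11.15, numpy 2.4.6, pandas 2.3.3 and matplotlib 3.10.9 were used, and the selection code was checked on simulated data.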

Additional observations from a re-analysis of the deposited data

How the results depend on the processing

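The number of members depended on the limits. It was 158 as reported, 15 with an IVF minimum of 10 FPKM, 34 with a clone maximum of 0.5 FPKM, 655 with a clone maximum of 2 FPKM, 246 after rescaling to TPM and 88 for Ensembl IDs alone. With columns centred it was 147, of which 136 were among the 158; of the 246, 122 were. The share under 1 FPKM in fibroblasts, 75.3% as reported, was 93.3% with the IVF minimum of 10, 88.2% and 57.9% with clone maxima of 0.5 and 2, 55.7% for Ensembl IDs and 100% for own loci, and 66.5% and 83.5% with fibroblast limits of 0.1 and 5 FPKM. With those limits, 50.0% and 70.5% of the Ensembl members were under the limit, against 8.64% and 32.3% of the other Ensembl IDs at 5 FPKM or more in IVF. It was 73.6% as TPM and 76.2% with columns centred. Members at 0 in both clone groups numbered 4, and 2 with the IVF minimum of 10 and 1 for Ensembl IDs. The median IVF level rose from 6.12 to 13.99 FPKM with that minimum, which follows from the limit itself, and was 6.18 and 6.94 with the clone maxima of 0.5 and 2 and 6.09 for Ensembl IDs. The median KDM5B minus SCNT difference of 0.13 became 0.31 (pseudocount 0.1) and 0.0376 (pseudocount 5), and stayed positive under the scalings run (0.12 as TPM, 0.0866 centred) and at a clone mean of at least 0.1 FPKM (0.15). Fewer or more members under another limit follow from that limit; other causes were not tested.

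No paired analysis was possible because each group has a single mean column without replicate numbers. Omitting each replicate in turn was not run for the same reason. Depth is unknown, so how far levels under 1 FPKM can be told from 0 is not known.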
